A study of Mus musculus with 8 samples.

Results

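The genes described here are 50 genes of DNA damage signalling and DNA repair, chosen by symbol from the deposited expression matrix of 38924 gene lines. All 50 symbols were found, each on 1 line, and 47 of them reached a value of 1 in at least 2 libraries and were tested. The study measured RNA in mouse embryos of the C57BL/6 strain, whose sex the labels give as female. There were 3 libraries of the inner cell mass (ICM), taken from blastocysts flushed on day 3.5, another 3 of ICM whose blastocysts were in diapause, and 2 of the epiblast of embryos that had implanted, at day 6.5. Diapause was brought on at day 3.5 by tamoxifen into the peritoneum and Depo Provera (0.5 mg) under the skin, and those embryos were taken 5 days later, so the arrested state, the hormone treatment and the time since mating cannot be told apart. Dams of the blastocysts of both kinds had been superovulated, and the trophectoderm, the outer layer of the blastocyst, had been lysed with antibody and complement. No such lysis is stated for the epiblast. Each library was a pool of about 50 embryos whose RNA was amplified, so p-values measure the spread between pools.

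Cells meet DNA breaks and damaged bases in every division and repair them by several routes. Kinases such as ATM and ATR sense the damage and signal through CHEK1 and CHEK2 to stop the cell cycle. Homologous recombination copies the intact sister chromatid and is used when DNA has been replicated, the Fanconi proteins unhook crosslinked strands, and end joining seals broken ends directly. Mismatch, base excision and nucleotide excision repair correct replication errors, small base lesions and bulky lesions. The early mouse embryo divides fast, and in diapause division slows or stops until the blastocyst is reactivated.

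Levels are in the authors' adjusted TPM, a transcript abundance per length, and means are given ± SD (n = 3 each in ICM and in diapaused ICM, and n = 2 epiblast libraries). Differences are log2 fold changes on the scale log2(value + 1) ± SE, which understates the change of low genes. A gene is said to have risen or fallen when its adjusted p in limma's moderated test was under 0.05. The read depth is unknown. Members were mostly weakly expressed: 27 of 50 had a mean under 5 over all libraries and 14 had a mean of 10 or more, and their median mean was 4.14, against 3.95 for all genes tested. Ung, the uracil glycosylase, was the most abundant member in every group. The plot of levels shows each gene in each library.

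**Figure D1:**
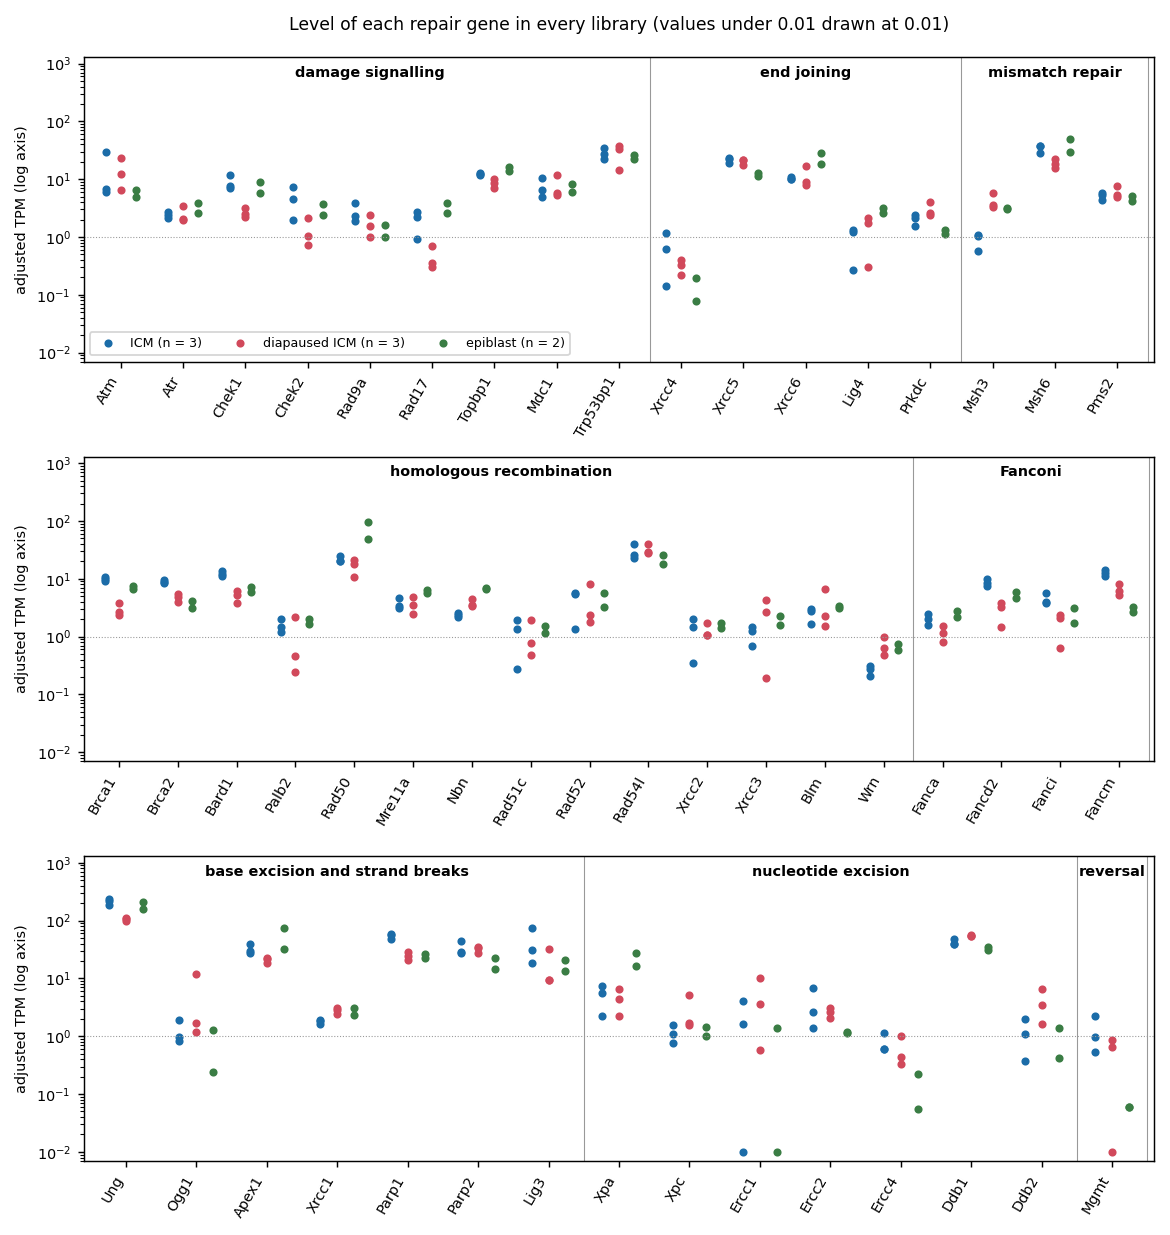
Adjusted TPM (log axis) of the 50 repair genes in each library, by repair route; points are libraries of ICM (blue), diapaused ICM (red) and epiblast (green), and the dotted line is a level of 1. Brca1 in diapaused ICM (2.35 to 3.89) lies below all ICM libraries (9.22 to 10.9), Msh3 lies above them, and Rad50 and Xpa are highest in epiblast.

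Libraries of a group correlated at 0.944 to 0.968 over the genes tested, and libraries of different groups at 0.818 to 0.919. Each library had 14634 to 15130 genes at 1 or more. Of 8 epiblast markers, Fgf5, Otx2 and Dnmt3b rose and Pou5f1, Nanog, Fgf4 and Tdgf1 fell in epiblast against ICM, with Pou5f1 and Nanog at 66.2 or more in every library. In diapaused ICM 2 of the 8 fell (Dnmt3b and Tdgf1) and 0 rose, and their sum was 489 to 833 in ICM, 363 to 476 in diapaused ICM and 531 to 876 in epiblast. The 12 primitive endoderm markers summed to 173 to 247 in ICM, 492 to 664 in diapaused ICM and 39.9 to 47.2 in epiblast, and 8 of them rose and 1 fell in diapaused ICM. Visceral endoderm markers summed to 16.4 to 31.9, 61.6 to 69.7 and 32.9 to 77.2 in these groups. Of 6 tested, 2 rose and 1 fell in diapaused ICM, and 3 rose (Ttr, Apoa1 and Apob) and 1 fell in epiblast, where Ttr was at 6.33 and 39.7. Trophectoderm markers summed to 41.1 to 59.7 in ICM, 54.2 to 185 in diapaused ICM and 59.3 to 67.4 in epiblast, and 1 of 8 tested rose in diapaused ICM. Diapaused ICM replicate 3 stood apart there, with Krt18 at 120.8. Of 8 blood and immune markers 7 were in the file. Their sum was 4.99 to 10.1 in ICM but 47.3 to 137 in the diapaused libraries, 2.33 to 4.07 in epiblast, and in diapaused ICM Cd68 and Laptm5 (the 2 tested) rose while Lyz2 and C1qa were near 0 in all 8 libraries. Of all genes tested, 7.52% were called higher and 5.81% lower in diapaused ICM against ICM, and 16.7% and 13.3% in epiblast against ICM. The part of these marker shifts in the results below was not tested.

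Diapaused ICM was compared with ICM to ask which repair genes differ in the arrested embryo. Of the 47 members tested, 8 fell and 1 rose, 19.1% in all, where 13.3% of all genes tested were called, 5.81% as lower and 7.52% as higher. The genes that fell were Brca1, Bard1, Brca2, Chek1, Fancd2, Fancm, Parp1 and Ung, and the gene that rose was Msh3. The groups did not overlap in 14 members that were lower and 6 that were higher, where 14.4% and 16.4% of all genes were separated in those directions, 30.7% in all. At an unadjusted p under 0.05 there were 16 members, where 27.3% of all genes passed. The median log2 fold change was -0.09 over the members and 0.00 over all genes tested. In these pools of cells, fewer cells of a type and less RNA per cell cannot be told apart.

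The BRCA1-BARD1 pair and BRCA2 act in homologous recombination. BRCA1 and BARD1 form a ubiquitin ligase that promotes resection and loading of the recombinase, and BRCA2 loads the recombinase onto single strands. Brca1 (ENSMUSG00000017146) was at 9.22, 10.1 and 10.9 in the ICM libraries, at 2.35, 2.69 and 3.89 in diapaused ICM and at 7.40 and 6.57 in epiblast. Every diapaused library was below every other library. The difference between diapaused ICM and ICM was -1.49 ± 0.21 (adjusted p = 0.00224), and diapaused ICM was also lower than epiblast (-1.02 ± 0.23, adjusted p = 0.0104, and 0.0788 without epiblast replicate 1). Bard1 (ENSMUSG00000026196) was at 11.0, 13.9 and 12.2 in ICM, at 3.88, 6.07 and 5.15 in diapaused ICM and at 7.27 and 6.01 in epiblast. It fell in diapaused ICM by 1.16 ± 0.22 (adjusted p = 0.00887). Both partners had their lowest means in diapause, and the ratio of Brca1 to Bard1 levels was 0.819 ± 0.0887 in ICM, 0.601 ± 0.156 in diapaused ICM and 1.06 ± 0.0532 in epiblast. Brca2 (ENSMUSG00000041147) was at 8.38, 8.81 and 9.37 in ICM, at 5.40, 4.02 and 4.77 in diapaused ICM and at 4.06 and 3.11 in epiblast. Its ICM libraries lay above all others, and it fell by 0.79 ± 0.19 in diapaused ICM (adjusted p = 0.0291) and by 1.11 ± 0.22 in epiblast (adjusted p = 0.00611). The first call was lost without any single ICM library and without diapaused ICM replicate 2 or 3 (adjusted p up to 0.0879), the second without epiblast replicate 2 (0.0545).

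The promoters of these genes were searched for E2F motifs, the letters bound by the factors that switch on genes for DNA replication, because several members fell together. The motifs were chosen after the values were seen. The strings TTTCGCGC, TTTGGCGC, TTTCCCGC and TTTGCCGC were searched on both strands in windows from 250 bases before to 50 after the start. RefSeq windows (GRCm38.p6) were found for 41 of 50 members, and 9 of them (22.0%) held a match, where 5.05% of 8120 tested genes with a window did. The stretches around the match are shown for 3 members picked from these, with the matching letters in capitals. They are Bard1 at chr1:71103147-71103221 on the minus strand, Brca2 at chr5:150522413-150522500 on the plus strand and Topbp1 at chr9:103305158-103305214 on the plus strand.
Bard1: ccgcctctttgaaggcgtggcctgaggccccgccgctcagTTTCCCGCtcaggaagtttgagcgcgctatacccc
Brca2: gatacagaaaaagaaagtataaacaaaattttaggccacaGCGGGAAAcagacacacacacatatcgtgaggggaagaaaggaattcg
Topbp1: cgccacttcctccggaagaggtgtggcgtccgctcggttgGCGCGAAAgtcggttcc
Of the members shown, Bard1 and Brca2 fell in diapaused ICM and in epiblast. Topbp1 was called only in diapaused ICM against epiblast, as lower. Xrcc6 and Msh6, which are not shown, also held a match and were lower in that comparison. Matches were found in members of every call. They stood in 2 of 7 members with a window that fell in diapaused ICM (Bard1 and Brca2), in Msh3, which rose, and in 6 of 31 that were not called there (Chek2, Topbp1, Mdc1, Rad51c, Xrcc6 and Msh6). The CHR string TTTGAA, named for a site found in genes of mitosis, was in 1 of the 41 windows (Bard1, 2.44%), against 14.3% of tested genes. The CCAAT box, searched as CCAAT, was in 21 (51.2%), against 43.6%. A match is only a description of the letters in the window.

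None of the 3 genes of the MRN complex, which tethers and trims broken ends, passed between diapaused ICM and ICM. Of all genes 13.3% were called there, and with 3 genes such a count is near that share. Rad50 was at 20.2, 20.6 and 24.6 in ICM and at 10.9, 17.9 and 21.6 in diapaused ICM, so the groups overlapped (-0.40 ± 0.32, 95% interval -1.13 to 0.32). Mre11a was at 3.71 ± 0.857 and 3.60 ± 1.18 (95% interval of the difference -0.61 to 0.50). Nbn was at 2.39, 2.61 and 2.17 in ICM and at 4.50, 3.41 and 3.55 in diapaused ICM. Every diapaused library was higher than every ICM library, but the difference of 0.50 ± 0.19 did not pass (adjusted p = 0.117). Rad54l, for a motor protein that remodels the recombinase filament, was among the more abundant members at 29.9 ± 9.56 in ICM, 32.3 ± 6.67 in diapaused ICM and 21.8 ± 5.09 in epiblast. The remaining members of the route, Palb2, Rad51c, Rad52, Xrcc2, Xrcc3 and the helicase gene Blm, had group means between 0.959 (Palb2 in diapaused ICM) and 4.51 (Rad52 in epiblast), and none of them passed in any comparison. The Werner helicase gene Wrn did not reach the filter, with 0.209 to 0.307 in ICM, 0.478 to 1.00 in diapaused ICM and 0.593 and 0.734 in epiblast.

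Among the 9 members for kinases and mediators of damage signalling, Chek1 was the one that fell in diapaused ICM. It encodes the kinase that holds back mitosis and replication origins when replication is disturbed. Chek1 (ENSMUSG00000032113) was at 11.7, 7.68 and 7.09 in ICM, at 2.25, 2.52 and 3.12 in diapaused ICM and at 9.05 and 5.83 in epiblast. The diapaused libraries were the 3 lowest. The difference was -1.41 ± 0.25 against ICM (adjusted p = 0.00709) and -1.20 ± 0.28 against epiblast (adjusted p = 0.0116, and 0.109 without epiblast replicate 1). Chek2, for the effector kinase of ATM, had a mean of 4.57 ± 2.64 in ICM against 1.29 ± 0.731 in diapaused ICM, with overlapping groups (-1.21, adjusted p = 0.0742). Rad17, for the loader of the checkpoint clamp, was at 0.941, 2.67 and 2.24 in ICM, at 0.307, 0.355 and 0.698 in diapaused ICM and at 2.60 and 3.90 in epiblast. It was lower in diapaused ICM than in epiblast (-1.54 ± 0.33, adjusted p = 0.00768, and 0.0673 without epiblast replicate 2), while the difference from ICM did not pass (-0.98 ± 0.29, adjusted p = 0.0590). Topbp1, which activates ATR, was at 11.7, 12.1 and 12.7 in ICM, at 7.16, 8.44 and 10.1 in diapaused ICM and at 16.3 and 13.9 in epiblast, with no overlap between the groups. It was lower in diapaused ICM than in epiblast (-0.76 ± 0.22, adjusted p = 0.0294), a call lost without diapaused ICM replicate 1 or 2 or either epiblast library (up to 0.151). It was also lost after rescaling without abundant genes or to a sum of 1000000, and with only the groups compared in the fit.

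The sensor kinases themselves were not called. Atr was at 2.42 ± 0.314 in ICM, 2.48 ± 0.807 in diapaused ICM and 3.26 ± 0.926 in epiblast, and the 95% interval of its difference between diapaused ICM and ICM was -0.53 to 0.54. Atm was uneven between pools, with 29.8 in ICM replicate 2 against 6.84 and 5.98, and 23.4 in diapaused ICM replicate 2 against 12.2 and 6.52. The scaffold genes Trp53bp1 and Mdc1 were at 28.4 ± 6.49 and 7.29 ± 2.95 in ICM and at 28.3 ± 12.3 and 7.65 ± 3.65 in diapaused ICM. Rad9a, for a subunit of the checkpoint clamp, was at 2.71 ± 1.05 and 1.64 ± 0.694.

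All 4 Fanconi members had diapaused libraries below every ICM library, and 2 of the 4 fell, where 14.4% of all genes were separated as lower and 5.81% were called lower. FANCM recognises stalled forks, and FANCD2 and FANCI form the pair that is marked with ubiquitin to start the repair of crosslinks. Fancd2 (ENSMUSG00000034023) was at 7.53, 9.74 and 8.44 in ICM, at 1.46, 3.81 and 3.23 in diapaused ICM and at 5.98 and 4.73 in epiblast. It fell by 1.37 ± 0.27 (adjusted p = 0.0124, and lost with no filter on low values). Fancm (ENSMUSG00000055884) was at 11.4, 14.0 and 12.4 in ICM, at 6.16, 5.26 and 8.29 in diapaused ICM and at 3.21 and 2.70 in epiblast. The 3 groups did not overlap, and their order was ICM, diapaused ICM, epiblast. Fancm fell in epiblast by 1.78 ± 0.24 (adjusted p = 0.00102), a call kept in all 17 alternatives. In diapaused ICM it fell by 0.86 ± 0.22 (adjusted p = 0.0307), a call lost in every fit without 1 library except the one without diapaused ICM replicate 3 (adjusted p 0.0255 to 0.0934 over the 8 fits), and lost with no filter, with only the groups compared and with the replicate number as a block. It was higher in diapaused ICM than in epiblast (0.92 ± 0.24, adjusted p = 0.0184), lost without either epiblast library (up to 0.111) and after rescaling to a sum of 1000000. Fanci was at 4.44 ± 1.01 in ICM, 1.72 ± 0.953 in diapaused ICM and 2.40 ± 0.991 in epiblast (adjusted p = 0.0636 for diapaused ICM), and Fanca at 2.02 ± 0.422, 1.16 ± 0.346 and 2.46 ± 0.427. The 4 genes together summed to 24.8 to 30.0 in ICM, 9.07 to 14.8 in diapaused ICM and 12.7 to 13.7 in epiblast.

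**Figure D2:**
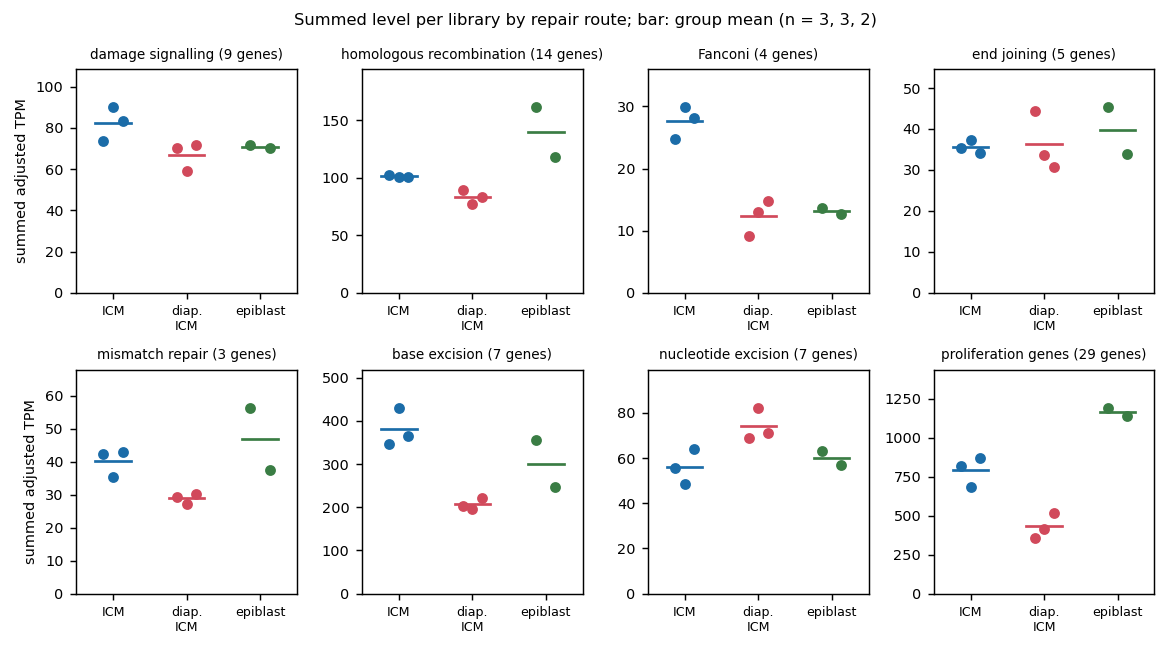
Summed adjusted TPM of the members of each repair route in each library, with 29 proliferation genes for comparison; points are libraries and bars are group means (n = 3, 3 and 2). Fanconi genes sum to 24.8 to 30.0 in ICM and to at most 14.8 in the other libraries, while the sum of the nucleotide excision genes, mostly Ddb1, is 68.9 to 82.3 in diapaused ICM and 48.7 to 64.1 in the other libraries.

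In mismatch repair, Msh3 rose in diapaused ICM and Msh6 and Pms2 were not called there. MSH6 belongs to the complex that sees single mismatches, and MSH3 to the one that sees longer loops. Msh3 (ENSMUSG00000014850) was at 1.05, 1.07 and 0.579 in ICM, at 5.78, 3.65 and 3.33 in diapaused ICM and at 3.04 and 3.20 in epiblast. All ICM libraries were below all others. Msh3 rose by 1.45 ± 0.24 in diapaused ICM (adjusted p = 0.00498) and by 1.13 ± 0.27 in epiblast (adjusted p = 0.0135, and up to 0.0808 without either epiblast library). The 2 comparisons share the ICM libraries. Msh6 was at 36.8, 28.5 and 37.2 in ICM, at 15.8, 18.4 and 22.1 in diapaused ICM and at 49.2 and 29.3 in epiblast. The diapaused libraries were the lowest, with a difference of -0.84 ± 0.26 from ICM that did not pass (adjusted p = 0.0660). The difference of -0.99 ± 0.29 from epiblast passed (adjusted p = 0.0272) but was lost without diapaused ICM replicate 1 or 2 or epiblast replicate 1 (up to 0.196), with no filter and with only the groups compared. The ratio of Msh6 to Msh3 levels was 26.6 to 64.2 in ICM, 2.73 to 6.63 in diapaused ICM and 9.17 to 16.2 in epiblast, with no overlap between the groups. These ratios were chosen after the values were seen and carry no test. Pms2, for an endonuclease of the route, was at 5.18 ± 0.705, 5.92 ± 1.54 and 4.63 ± 0.549.

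**Figure D3:**
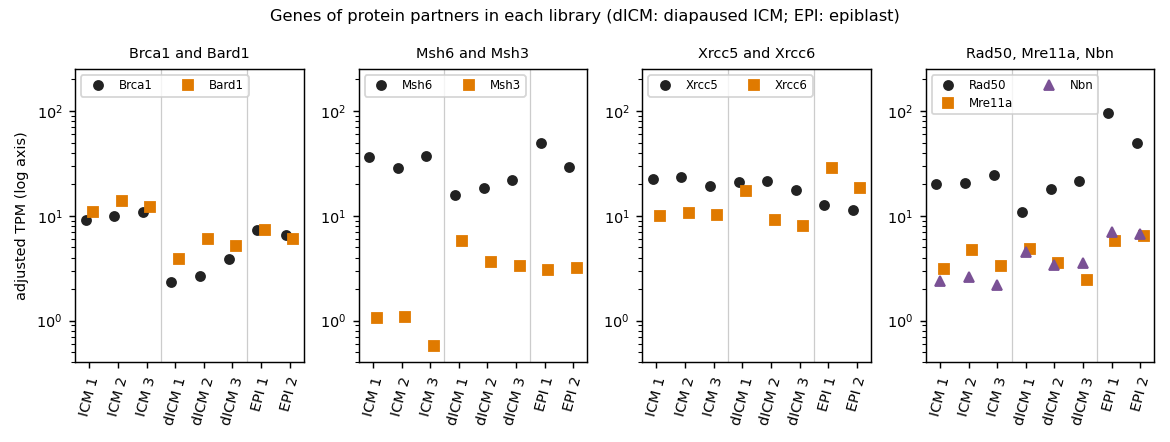
Adjusted TPM (log axis) of genes whose products form complexes, in each of the 8 libraries (dICM is diapaused ICM and EPI is epiblast). Brca1 and Bard1 have their lowest means in diapaused ICM, Msh3 is at least 3.04 in diapaused ICM and epiblast and at most 1.07 in ICM, and Xrcc6 lies above Xrcc5 only in the 2 epiblast libraries.

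In base excision and single-strand break repair, Ung and Parp1 fell in diapaused ICM. UNG cuts uracil out of DNA, and PARP1 binds nicks and marks them with ADP-ribose. Ung (ENSMUSG00000029591) was at 188, 240.3 and 219 in ICM, at 106, 97.8 and 112 in diapaused ICM and at 207 and 161 in epiblast. The diapaused libraries were the 3 lowest, and the difference from ICM was -1.02 ± 0.21 (adjusted p = 0.0133). The difference from epiblast was -0.79 ± 0.23 (adjusted p = 0.0288), a call lost without diapaused ICM replicate 1 or 2 or epiblast replicate 1 (up to 0.160), under all 3 other scalings and with the replicate number as a block. Parp1 (ENSMUSG00000026496) was at 48.2, 56.8 and 59.0 in ICM, at 21.2, 28.2 and 24.9 in diapaused ICM and at 26.8 and 22.4 in epiblast. Its ICM libraries were the 3 highest. It fell by 1.11 ± 0.21 in diapaused ICM (adjusted p = 0.00943) and by 1.12 ± 0.23 in epiblast (adjusted p = 0.00837, and 0.0592 without epiblast replicate 2). Its relative Parp2 was at 33.7 ± 9.75 in ICM, 31.9 ± 3.98 in diapaused ICM and 18.7 ± 5.75 in epiblast, with a 95% interval of -0.66 to 0.56 for the difference between diapaused ICM and ICM. The ratio of Parp1 to Parp2 levels was 1.07 to 2.16 in ICM, 0.634 to 0.910 in diapaused ICM and 1.18 to 1.54 in epiblast.

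Apex1, for the endonuclease that cuts the strand after a base is removed, was at 29.6, 27.7 and 39.1 in ICM, at 18.3, 22.6 and 21.6 in diapaused ICM and at 74.0 and 32.8 in epiblast. It was lower in diapaused ICM than in epiblast (-1.21 ± 0.34, adjusted p = 0.0256), but the epiblast pools were far apart and the call was lost without epiblast replicate 1 or diapaused ICM replicate 1 or 3 (up to 0.189), with no filter and with only the groups compared. The scaffold gene Xrcc1 was at 1.81 ± 0.163 in ICM, 2.80 ± 0.306 in diapaused ICM and 2.73 ± 0.504 in epiblast, and did not pass (adjusted p = 0.185 for diapaused ICM). Lig3, its ligase partner, was uneven, with 74.9 in ICM replicate 2 against 31.5 and 18.8. Ogg1, for the glycosylase of oxidised guanine, was at 11.9 in diapaused ICM replicate 1 and at 0.241 to 1.92 in the other 7 libraries.

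None of the members of nucleotide excision repair was called between diapaused ICM and ICM by limma (0 of 7, where 13.3% of all genes were called, and 1 at an unadjusted p under 0.05, where 27.3% passed), a count near the share over all genes. This route removes bulky and ultraviolet lesions. Of 21 other genes of nucleotide excision and direct reversal tested, 3 fell and 0 rose in diapaused ICM (14.3%). Of all genes 5.81% were called lower and 7.52% higher. Ddb1, for the adaptor of the damage-sensing ubiquitin ligase, was at 38.8, 39.2 and 49.1 in ICM, at 54.8, 53.8 and 56.1 in diapaused ICM and at 31.5 and 35.7 in epiblast. Diapaused libraries were the 3 highest. The difference from ICM was 0.37 ± 0.20 (adjusted p = 0.266), and that from epiblast passed at 0.69 ± 0.22 (adjusted p = 0.0387). This call was lost in 6 of the 8 fits without 1 library, all but those without ICM replicates 2 and 3 (up to 0.161), after rescaling to a sum of 1000000 and with the replicate number as a block. Ddb2, its damage-binding partner, was at 1.16 ± 0.814, 3.91 ± 2.46 and 0.899 ± 0.665, and Xpc, another damage sensor, at 1.13 ± 0.399, 2.80 ± 2.00 and 1.22 ± 0.318. Neither passed in any comparison. Xpa, which checks the lesion, was at 7.52, 2.26 and 5.66 in ICM, at 4.48, 6.56 and 2.27 in diapaused ICM and at 27.6 and 16.5 in epiblast. Both epiblast libraries were above all others, with a difference from ICM of 1.97 ± 0.47 (adjusted p = 0.0147). Diapaused ICM differed from epiblast by -2.12 ± 0.47 (adjusted p = 0.00955). Both calls were lost without epiblast replicate 1 (0.137 and 0.0982) and with no filter.

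The endonuclease genes Ercc1 and Ercc4 encode partners and were low. Ercc1 was close to 0 in ICM replicate 1 (7.96e-09) and epiblast replicate 1 (4.84e-06) and at 0.573 to 10.3 in the other 6 libraries, so its group means say little. Ercc4 was at 0.776 ± 0.304, 0.601 ± 0.373 and 0.139 ± 0.118. The helicase gene Ercc2 was at 3.67 ± 2.92, 2.58 ± 0.522 and 1.18 ± 0.0289. Mgmt, for the enzyme that takes methyl groups off guanine directly, did not reach the filter, with 0.537 to 2.22 in ICM, 0.00962 to 0.859 in diapaused ICM and 0.0598 and 0.0588 in epiblast.

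The end joining members did not pass between diapaused ICM and ICM by limma (0 of 4 tested, where 13.3% of all genes were called, and 0 at an unadjusted p under 0.05, where 27.3% of all genes passed). With 4 genes, such a count is near the share over all genes. Of 6 other end joining genes tested, 2 fell in diapaused ICM (Dclre1c and Polm, 33.3%), where 5.81% of all genes were called lower. XRCC5 and XRCC6 together form the Ku ring that clamps broken ends, and PRKDC is the kinase it recruits. Xrcc5 was at 22.3, 23.4 and 19.3 in ICM, at 21.2, 21.4 and 17.7 in diapaused ICM and at 12.6 and 11.2 in epiblast. Xrcc6 was at 10.1, 10.7 and 10.3 in ICM, at 17.2, 9.06 and 7.96 in diapaused ICM and at 28.5 and 18.5 in epiblast. The partners therefore stood in opposite order in epiblast, with a ratio of Xrcc5 to Xrcc6 levels of 1.24 to 2.36 in the 6 blastocyst libraries and of 0.443 and 0.608 in epiblast. Against ICM, Xrcc5 fell in epiblast by 0.81 ± 0.22 (adjusted p = 0.0243) and Xrcc6 rose by 1.08 ± 0.33 (adjusted p = 0.0388). Both calls were fragile. That of Xrcc5 was lost without ICM replicate 1 or 2 or either epiblast library (up to 0.116) and after quantile normalization, and that of Xrcc6 without any ICM or epiblast library (up to 0.252), with no filter, after both rescalings and with the replicate number as a block. Diapaused ICM differed from epiblast in the same genes, by 0.70 ± 0.22 for Xrcc5 (adjusted p = 0.0360) and -1.02 ± 0.33 for Xrcc6 (adjusted p = 0.0418), with calls lost in 5 and 7 of the 8 fits without 1 library. For Xrcc5 these were the fits without ICM replicate 1, diapaused ICM replicate 1 or 2 or either epiblast library (up to 0.152), and for Xrcc6 all but the one without diapaused ICM replicate 1 (up to 0.261). Both were also lost with only the groups compared, that of Xrcc5 after quantile normalization and rescaling to a sum of 1000000, and that of Xrcc6 with no filter and with the block. Prkdc was at 1.54, 2.39 and 2.09 in ICM, at 3.98, 2.56 and 2.43 in diapaused ICM and at 1.12 and 1.32 in epiblast. It was higher in diapaused ICM than in epiblast (0.83 ± 0.26, adjusted p = 0.0353), a call lost without diapaused ICM replicate 1 or either epiblast library (up to 0.157), with no filter, after rescaling to a sum of 1000000, with only the groups compared and with the block. Lig4, for the sealing ligase, was at 0.936 ± 0.582, 1.41 ± 0.982 and 2.88 ± 0.358 and did not pass, and Xrcc4, its partner, was under the filter at 0.079 to 1.15.

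**Figure D4:**
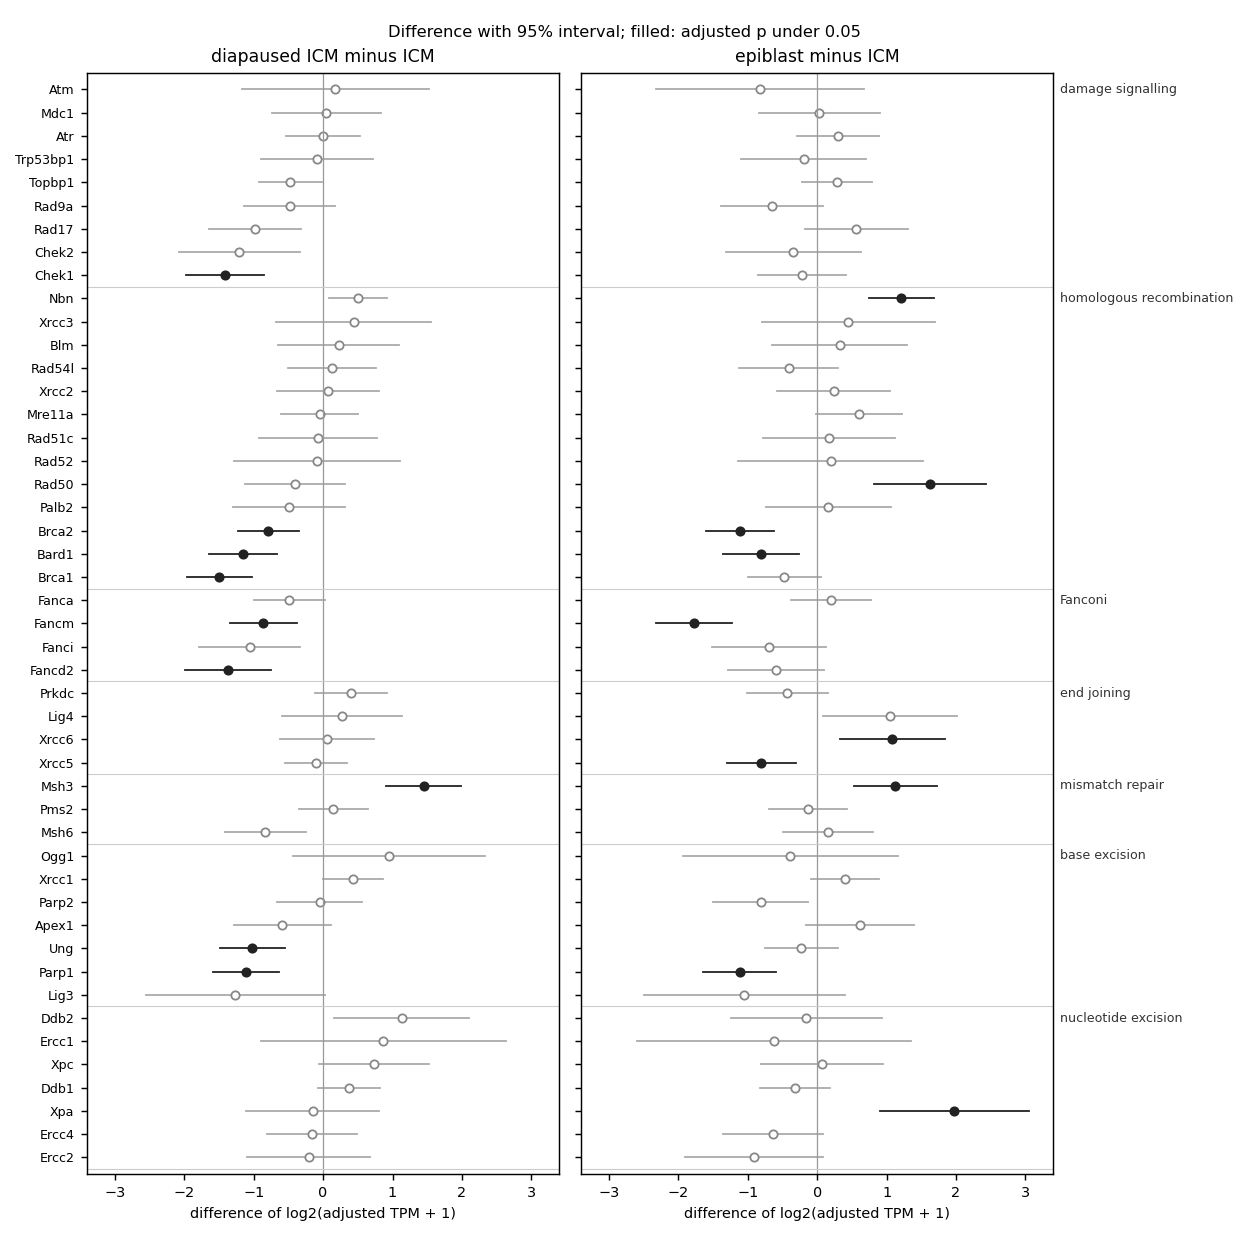
Log2 fold change with its 95% interval for the 47 tested repair genes, ordered by route, in diapaused ICM minus ICM (left) and epiblast minus ICM (right); filled symbols passed an adjusted p of 0.05. Msh3 rose on both sides, Bard1, Brca2, Fancm and Parp1 fell on both, and Rad50, Nbn, Xrcc6 and Xpa rose on the right only; the 2 sides share the ICM libraries.

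The comparison of epiblast with ICM asked how the same genes stood after implantation. Of 47 members 5 rose and 5 fell, 21.3% in all, where 30.1% of all genes tested were called, 16.7% as higher and 13.3% as lower, so the share of members called was below the share of all genes. The groups did not overlap in 11 higher and 14 lower members, where 33.9% and 25.0% of all genes were separated, 59.0% in all, and 12 members had an unadjusted p under 0.05, where 42.0% of all genes did. Those that rose were Rad50, Nbn, Xrcc6, Msh3 and Xpa, and those that fell were Brca2, Bard1, Xrcc5, Fancm and Parp1. Their median was -0.16, and that of all genes 0.14. Rad50 (ENSMUSG00000020380) was at 96.1 and 49.8 in epiblast, above the 6 blastocyst libraries at 10.9 to 24.6. It rose by 1.63 ± 0.36 against ICM (adjusted p = 0.0101, and 0.101 without epiblast replicate 1), and the difference of diapaused ICM from epiblast was -2.03 ± 0.36 (adjusted p = 0.00319), a call kept in all 17 alternatives. Nbn (ENSMUSG00000028224), for the subunit that recruits ATM to breaks, was at 7.03 and 6.68 in epiblast, against 2.17 to 2.61 in ICM, and the 3 groups did not overlap. It rose by 1.21 ± 0.21 against ICM (adjusted p = 0.00335, and at most 0.0389 without 1 library). The difference of diapaused ICM from epiblast was -0.71 ± 0.21 (adjusted p = 0.0286), lost without diapaused ICM replicate 2 or 3 or either epiblast library (up to 0.131), after both rescalings, with only the groups compared and with the replicate number as a block. Mre11a, the nuclease of the complex, was at 5.79 and 6.44 in epiblast, above all other libraries at 2.46 to 4.82, but did not pass (0.61 ± 0.27, adjusted p = 0.125). The fall of Bard1 (-0.81 ± 0.24, adjusted p = 0.0343) was lost without any ICM or epiblast library (up to 0.175), after quantile normalization and with the replicate number as a block. Brca1 was at lower values in epiblast than in ICM without passing (-0.47 ± 0.23, adjusted p = 0.161). The 10 calls rested on 2 epiblast libraries, and 4 members were called without epiblast replicate 1 and 5 without replicate 2.

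Diapaused ICM was also set against epiblast, which shares its libraries with the other 2 comparisons. Of 47 members 11 were lower and 4 higher in diapaused ICM, 31.9% in all, where 34.5% of all genes were called, 18.6% as lower and 16.0% as higher. The groups did not overlap in 16 lower and 11 higher members, where 34.1% and 27.3% of all genes were separated, 61.4% in all. At an unadjusted p under 0.05 there were 20 members, where 46.0% of all genes passed. The lower ones were Chek1, Rad17, Topbp1, Brca1, Rad50, Nbn, Xrcc6, Msh6, Ung, Apex1 and Xpa, and the higher ones Xrcc5, Prkdc, Fancm and Ddb1. After rescaling to a sum of 1000000 the split was 8 lower and 0 higher. The count fell from 15 to 2 without epiblast replicate 1, to 7 without epiblast replicate 2 and to 9 without diapaused ICM replicate 1.

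Other genes of the same routes, from lists that do not hold the members, were also counted. Of 103 tested, 1 rose and 10 fell in diapaused ICM (10.7%), with a median of -0.15. Of all genes 7.52% were called higher and 5.81% lower, 13.3% in all. The groups did not overlap in 8 higher and 24 lower genes of the lists, where 16.4% and 14.4% of all genes were separated. Those that fell included Brip1, for the helicase partner of BRCA1 (8.96 ± 3.80 in ICM against 1.65 ± 0.285 in diapaused ICM, adjusted p = 0.00290), and Ticrr, for a protein that fires replication origins under checkpoint control (8.39 ± 0.783 and 2.15 ± 1.13). They also included Dclre1c, for the Artemis nuclease of end joining (17.1 ± 1.85 and 6.28 ± 1.62), Rad23b, which stabilises XPC (132 ± 14.2 and 55.0 ± 5.34), and H2afx, for the histone marked at breaks (52.8 ± 12.0 and 25.4 ± 1.22). Fam175a, Polm, Pms1 and Gtf2h5 were also among them. Fance, for a subunit of the Fanconi core complex, was the gene that rose (8.44 ± 0.507 and 14.9 ± 1.77, adjusted p = 0.0363). None of 22 other genes of homologous recombination, 10 of base excision and 8 of translesion synthesis was called in diapaused ICM by limma. Of them 3, 1 and 4 had an unadjusted p under 0.05, where 27.3% of all genes did and 13.3% were called. The lesion-bypass polymerase gene Polk, which rose, was not among these 8 and was counted with the p53 targets below. Of the 103 genes, 15 rose and 13 fell in epiblast against ICM (27.2%, with 30.1% of all genes called). The smallest adjusted p-values there belonged to Gtf2h1, a subunit of the excision repair helicase factor, which fell from 87.9 ± 33.9 to 6.07 ± 1.98, and Fam175a, for the scaffold of the BRCA1-A complex, which fell from 83.6 ± 36.4 to 4.67 ± 1.35. Pcna, the sliding clamp, rose from 293 ± 19.0 to 783 ± 234.

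A pair of further lists give the setting of these values. Of 28 proliferation genes tested, 0 rose and 10 fell in diapaused ICM, where 7.52% and 5.81% of all genes did. Their median was -0.70, and that of all genes 0.00. The proliferation genes summed to 686 to 872 in ICM, 358 to 518 in diapaused ICM and 1140 to 1195 in epiblast. The proliferation genes thus had their lowest sums in diapaused ICM and their highest in epiblast. The 4 Fanconi members had their highest sums in ICM, but the 10 other Fanconi genes summed to 55.1 to 59.1 in ICM, 41.8 to 46.8 in diapaused ICM and 63.1 to 81.1 in epiblast, with 1 of 9 tested higher and 1 lower in diapaused ICM. The part of proliferation in the repair results was not tested. Of 19 p53 targets 3 rose and 0 fell in diapaused ICM (15.8%). Of all genes 7.52% were called higher and 5.81% lower, 13.3% in all. The targets that rose were Btg2, Sesn2 and Polk, for a lesion-bypass polymerase (0.542 ± 0.405 and 2.59 ± 0.836). The groups did not overlap in 6 higher and 2 lower targets, where 16.4% and 14.4% of all genes were separated. The median of the targets was 0.38.

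The position of the members on the chromosomes was also examined. In the GENCODE M21 models, 18 of 50 members had a coding gene starting head to head within 1000 bases. The neighbours given here were picked after the values were seen, for values unlike the members'. Others differed between diapaused ICM and ICM in the same direction as their member, such as Hscb beside Chek2 and Zfyve21 beside Xrcc3. The pairs given therefore do not stand for all 18. Nbr1, beside Brca1, averaged 22.4 ± 11.9 in ICM against 33.0 ± 11.1 in diapaused ICM, where Brca1 fell. Emc3, beside Fancd2, was at 5.95 ± 0.882 and 6.72 ± 0.317. Lsm3, beside Xpc, was at 120 ± 8.68 and 58.3 ± 9.18, while Xpc had the higher mean in diapaused ICM. Mcm4, for a subunit of the replicative helicase beside Prkdc, was at 58.4 ± 26.3 and 34.2 ± 11.8. In the same models 15 members shared 200 or more exon bases with another coding gene. Among members called in a comparison these were Fancd2, Msh3, Xrcc6, Apex1 and Ddb1. Of those not called, Trp53bp1, Lig3 and Rad54l shared the most, with 2130, 1826 and 1184 bases, so the limit below holds for their levels too. Fancm, also called, shared 575 exon bases with Gm47870, which is not classed as coding. Since the use of strand is not given, reads within the shared bases cannot be told apart from those of the overlapping genes.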

How the data were processed

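RNA of 8 pools of mouse embryos was analysed from 1 deposited matrix. It gives 1 signal value for each gene and library, which the authors labelled adjusted TPM without a stated adjustment. Column sums ran from 720674 to 1179026, unlike TPM, which sums to a constant, and the deposited signal was therefore tested on a log scale. The submitters' processing notes name Bowtie 0.12.5, DESeq and the build mm9 with no roles. The annotation and whether strand was used are unstated in the sources used here, and the read depth is unknown.

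Genes at 1 or more in at least 2 libraries (17698 of 38924) were kept. limma 3.58.1 in R 4.3.3 was fitted to log2(value + 1) of all 8 libraries with a mean per group, and tests were two-sided with Benjamini-Hochberg adjustment over all genes kept and a threshold of 0.05. The design had foreseen TPM and the test was kept. In simulated data for diapaused ICM against ICM (17698 genes, 200 changed, 5 runs), changes of 1 on the log2 scale were recovered in 12.7% to 12.9% of genes and changes of 2 in 60.8% to 62.6%, with 6.05% of calls false. For epiblast against ICM the shares were 2.74% to 3.37% and 47.2% to 51.8% (4.74% false), and for diapaused ICM against epiblast 3.30% to 5.21% and 51.4% to 60.3% (5.11% false). In the data 13.3%, 30.1% and 34.5% of genes were called in these comparisons, far more than the 200 changed in the simulation. The adjustment is stricter when few genes change, so the shares recovered there need not hold for the data.

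The members and lists were chosen with earlier results of these data known. All members were accounted for, those past the threshold with their value in every library, and of each other list at most 4 genes per comparison, by smallest adjusted p. Symbols were matched by name. Values of some genes outside the members are not reported here. Promoter windows came from RefSeq (GRCm38.p6) and gene neighbours from GENCODE M21, used without converting coordinates. The motifs, partner ratios and neighbours were chosen after the values were seen.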

Additional observations from a re-analysis of the deposited data

How the results depend on the processing

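No member called in a comparison changed direction in any alternative. Between diapaused ICM and ICM, the count of 9 members ranged from 7 to 8 without 1 library, with 6 to 7 lower and 1 higher in each. Between epiblast and ICM it ranged from 4 to 11, with 1 to 6 higher, 1 to 5 lower and a median from -0.17 to 0.05 (0.0531, without epiblast replicate 2), and between diapaused ICM and epiblast from 2 to 14, with 0 to 4 higher and 2 to 10 lower. A lone epiblast library is there assumed to vary like the other groups. A minimum fold of 1.5 left 1 member (0 higher, 1 lower: Brca1), 1 (0 higher, 1 lower: Fancm) and 2 (0 higher, 2 lower: Rad50 and Xpa). Without a filter on low values 3 members were higher in epiblast than in ICM and 7 lower in diapaused ICM than in epiblast. A filter of 5 left 0 members higher in diapaused ICM, since Msh3 was then not tested. Quantile normalization gave 5 higher and 3 lower in epiblast. Rescaling to a sum of 1000000 shifted the median of all genes by -0.20 in diapaused ICM and -0.21 in epiblast against ICM, with 1 member higher and 11 lower, and 4 and 6. It left 8 (0 higher) between diapaused ICM and epiblast. Rescaling without 126 abundant genes shifted the median by -0.14 in epiblast, with 4 members higher and 6 lower. Among all genes these 2 rescalings put 36.9% and 46.9% of calls in diapaused ICM as higher in place of 56.4%, and 36.0% and 42.1% in epiblast in place of 55.7%. With only the groups compared, 8 members (2 higher, 6 lower) were called between diapaused ICM and epiblast. Where no reason is given, the cause was not tested.

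With the replicate number as a block, 11 members were called between diapaused ICM and ICM (1 higher, 10 lower), 8 of the 9 calls being kept. The split was 5 and 5 in epiblast against ICM, and 4 higher and 10 lower in diapaused ICM against epiblast. Deviations of same-numbered ICM and diapaused ICM libraries correlated at 0.02, 0.10 and 0.13 across genes, and those of other-numbered ones at -0.15 to 0.03. ICM replicate 1 correlated more with diapaused ICM replicate 2 (0.03). These values do not decide whether the numbers mark pairs. The numbers were not taken as pairs because the labels do not say that they are. Read depth is unknown, and how far it limits the low genes cannot be given.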
